A study of Homo sapiens with 4 samples.

Results

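Protocadherins are the largest group of cadherins, calcium-dependent cell surface proteins that let cells recognise and sort from each other. The clustered protocadherins are encoded by the adjacent PCDHA, PCDHB and PCDHG arrays on the long arm of chromosome 5. There each variable first exon has its own promoter, and in PCDHA and PCDHG it is spliced to constant exons shared by the whole array. The nonclustered protocadherins are single genes outside the arrays. They are known from the nervous system, where they act in adhesion and cell movement, and some of them mark parts of the early embryo, such as PCDH8 in the paraxial mesoderm of vertebrates. The protocadherin group was chosen with earlier results of these data known. Its genes were taken by name: every row whose symbol is PCDH followed by digits and capital letters and does not end in P. This gave 68 of the 58365 rows, of which 54 were clustered (16 PCDHA, 16 PCDHB and 22 PCDHG) and 14 nonclustered. Annotation calls 2 of them pseudogenes, PCDHA14 and PCDH8P1, and both were kept.

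The data were RNA-seq values of H1 cells, a human embryonic stem cell line, on day 2 of induced hematopoietic differentiation. All 4 libraries came from cells in Custom mTeSR1 with activin A and BMP4, at 40 and 50 ng/ml in the sample labels (the study's methods give the 2 doses the other way round). Groups of 2 libraries each were compared, DMSO and IWP2. IWP2 inhibits Porcupine, the acyltransferase that Wnt ligands need for secretion, so the comparison asks how the genes were expressed when Wnt secretion was blocked during mesoderm induction. The labels do not say whether the 2 libraries of a group came from separate cultures, so the p-values measure only the spread between these libraries, which may be technical.

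Each value is FPKM, fragments scaled to transcript length and to the mapped fragments of the library, and differences are on the log2(FPKM + 1) scale, which understates the change of low genes. Read totals were not given. In genes under 1 FPKM the values of 2 libraries stood most often in 1 ratio, which put the reads of DMSO replicate 2, IWP2 replicate 1 and IWP2 replicate 2 at 0.89, 1.1 and 0.95 times those of DMSO replicate 1. The 10 listed Wnt response genes summed to between 135 and 143 FPKM in DMSO and between 18.9 and 19.8 FPKM in IWP2, and 6 of the 10 fell, among them AXIN2, a negative feedback gene of the pathway, from 14.2 and 15.2 to 6.45 and 5.58 FPKM. Among the others that fell, SP5 had 53.2 and 47.1 FPKM in DMSO and 0.379 and 0.363 FPKM in IWP2. NKD1 had 38.2 and 52.3 against 1.70 and 1.56 FPKM, and LEF1 had 9.34 and 9.70 against 0.144 and 0.239 FPKM. The other 4 were not called. Of these, NKD2 (0.8554 and 0.8525 against 1.105 and 1.413 FPKM) and ZNRF3 (5.66 and 5.98 against 7.05 and 6.49 FPKM) lay higher in both IWP2 libraries. TNFRSF19 lay lower in both, and RNF43 overlapped. All 6 nascent mesoderm markers fell, with sums of 873 to 1087 FPKM in DMSO and 49.1 to 53.2 FPKM in IWP2, whereas 4 of 5 pluripotency markers rose, with sums of 641.6 to 827.7 and of 2004 to 2010 FPKM. In bulk RNA fewer cells of a type and less RNA per cell cannot be told apart. Of 15980 genes tested, 2104 passed an adjusted p of 0.05 (limma, Benjamini-Hochberg), 13.2% of all, with 929 (5.81%) higher and 1175 (7.35%) lower in IWP2.

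The sequences bear on what a value means for a clustered gene. In GENCODE 29 (GRCh38), 15 PCDHA and 22 PCDHG genes have a transcript of 4 exons, and within each array the 59 bases of the second exon are identical in all of them. The lines show, 5′ to 3′, the last 30 coding bases of the variable exon in lower case and the shared second exon in capitals for the genes with the highest levels among these arrays.

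PCDHA11: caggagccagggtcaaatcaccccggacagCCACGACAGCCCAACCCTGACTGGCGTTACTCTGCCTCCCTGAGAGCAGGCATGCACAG

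PCDHA4: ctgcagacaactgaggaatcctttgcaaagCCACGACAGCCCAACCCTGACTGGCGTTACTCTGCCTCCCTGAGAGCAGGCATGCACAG

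PCDHGA10: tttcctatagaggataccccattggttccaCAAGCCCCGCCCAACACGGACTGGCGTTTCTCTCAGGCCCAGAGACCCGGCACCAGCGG

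PCDHGB7: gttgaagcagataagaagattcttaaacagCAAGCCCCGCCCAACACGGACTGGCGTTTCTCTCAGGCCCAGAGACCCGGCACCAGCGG

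PCDHGC3: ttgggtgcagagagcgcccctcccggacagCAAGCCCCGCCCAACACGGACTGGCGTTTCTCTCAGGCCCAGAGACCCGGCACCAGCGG

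The lower-case parts differ from gene to gene and the capitals do not within an array. The second exons of the 2 arrays have the same base at 39 of 59 positions. The shared exons made up 45.5% to 54.9% of the 4-exon transcript in PCDHA and 45.7% to 47.6% in PCDHG, so a read from them names the array and not the gene. Over all annotated transcripts, the median share of 100-base windows found in no other PCDH gene was 52.3% in PCDHA, 56.9% in PCDHG and 94.0% in PCDHB, whose genes have no constant exons, and 100% in the nonclustered genes. The levels of single PCDHA and PCDHG genes are uncertain for this reason, and the sums over each array are given beside them. FPKM divides by the length of each gene, so the sums too can shift with how shared reads were divided. The PCDHA sum includes the pseudogene PCDHA14, whose 2199 windows were all found in other PCDH genes too. PCDHA14 was listed at 0.236 and 0.177 FPKM in DMSO and 0.526 and 0.359 FPKM in IWP2. The library kit did not keep strand, and 22 members share exon bases with a gene on the opposite strand, up to 16.3% of their exon bases.

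Only part of the group was expressed at a level that could be tested, a mean of at least 0.5 FPKM over all 4 libraries. It was reached by 35 of the 68 genes, 24 clustered and 11 nonclustered. Just below the line lay PCDHA3 with a mean of 0.474 FPKM and PCDHB13 with 0.437 FPKM, and just above it PCDHAC1 with 0.522 FPKM and PCDHGB1 with 0.558 FPKM. A mean of 5 FPKM was reached by 8 genes, 4 clustered and 4 nonclustered, and PCDHB1 was at 0 in every library.

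The nonclustered genes changed in both directions with IWP2. PCDH9, PCDH18, PCDH20 and PCDH1 rose, PCDH17 and PCDH10 fell, and 5 others tested did not pass. Those are 6 calls among 11 genes tested, beside 13.2% over all genes. The median difference of these 11 genes was 0.23 on the log2 scale, and that of all genes tested was -0.01. PCDH9 and PCDH20 reached the level for testing through the IWP2 libraries, and PCDH17 through the DMSO libraries.

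**Figure D1:**
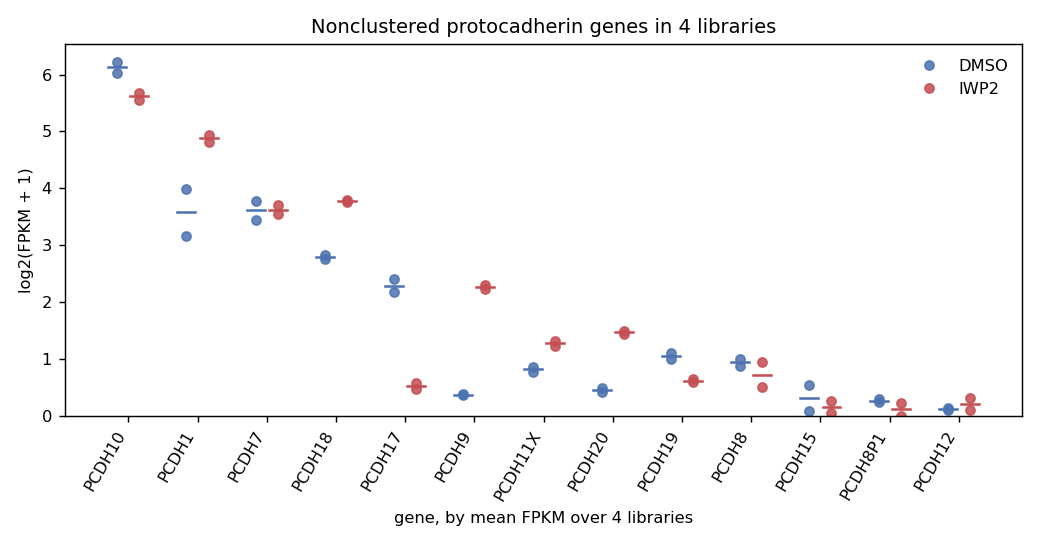
Levels of 13 nonclustered protocadherin genes as log2(FPKM + 1), ordered by mean FPKM, with DMSO libraries in blue and IWP2 libraries in red; each point is 1 library and each line the group mean. PCDH9, PCDH18, PCDH20 and PCDH1 sit higher in both IWP2 libraries, PCDH17 and PCDH10 lower, and PCDH7 overlaps.

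PCDH9, a gene of the delta-1 subfamily known for its expression in brain, showed the largest rise of the group. It lies on the minus strand at chr13:66302834-67230445. Its level was 0.299 and 0.286 FPKM in DMSO and 3.94 and 3.70 FPKM in IWP2. Both IWP2 libraries were far above both DMSO libraries, with means of 0.293 ± 0.00878 and 3.82 ± 0.167 FPKM (SD, n = 2 each), a 13.1-fold ratio. The difference was 1.90 on the log2 scale (SE 0.16, limma adjusted p = 0.00369). The call was lost without IWP2 replicate 1 (1.86, adjusted p = 0.0757) and without IWP2 replicate 2 (1.93, adjusted p = 0.0798). The antisense row PCDH9-AS1 was listed at 0 in all libraries.

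PCDH17, a delta-2 member that binds the actin-regulating WAVE complex, fell the most. It lies on the plus strand at chr13:57631810-57729311. PCDH17 shares 7.85% of its exon bases with AL445288.1 on the opposite strand, so the PCDH17 values may include reads of that gene. DMSO libraries had 3.50 and 4.31 FPKM and IWP2 libraries 0.393 and 0.489 FPKM. The DMSO mean of 3.91 ± 0.577 FPKM was 8.86 times the IWP2 mean of 0.441 ± 0.0677 FPKM (SD, n = 2 each). The difference was -1.76 on the log2 scale (SE 0.17, limma adjusted p = 0.00554). Without DMSO replicate 2, IWP2 replicate 1 or IWP2 replicate 2 it was -1.64, -1.72 and -1.81, with adjusted p of 0.0515, 0.0930 and 0.0933.

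PCDH18, another delta-2 member, was expressed in both groups. It lies on the minus strand at chr4:137518918-137532494. Its level was 5.75 and 6.12 FPKM in DMSO and 12.9 and 12.5 FPKM in IWP2, so that replicates lay close together and the groups apart. The ratio of means was 2.14 and the difference 0.98 on the log2 scale (SE 0.11, limma adjusted p = 0.00746). It passed in every alternative except a required log2 difference of 1 and those that left out a library, where the difference was 0.94 to 1.02 with adjusted p of 0.0581 without DMSO replicate 1, 0.0616 without DMSO replicate 2, 0.124 without IWP2 replicate 1 and 0.120 without IWP2 replicate 2.

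PCDH20 rose from 0.338 and 0.409 FPKM in DMSO to 1.81 and 1.71 FPKM in IWP2. It lies on the minus strand at chr13:61409685-61415522. The ratio of means was 4.72 and the difference 1.01 on the log2 scale (SE 0.17, limma adjusted p = 0.0227). It was not called without any 1 of the 4 libraries: adjusted p was 0.0773 without DMSO replicate 1, 0.0767 without DMSO replicate 2, 0.145 without IWP2 replicate 1 and 0.140 without IWP2 replicate 2. A second annotated gene on the same strand, AL592490.1, contains 95.8% of the PCDH20 exon bases. Its row was at most 7.53e-07 FPKM in all libraries. Reads from the shared bases fit both genes, so this row does not show that AL592490.1 was silent. The PCDH20 values may include its reads.

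PCDH1, a delta-1 member known from airway epithelium, lies on the minus strand at chr5:141853111-141879246, downstream of the clusters. Its DMSO libraries differed from each other, with 14.9 and 7.97 FPKM, and both were below the IWP2 libraries with 29.8 and 27.1 FPKM. The ratio of means was 2.49 and the difference 1.30 on the log2 scale (SE 0.28, limma adjusted p = 0.0421). Without DMSO replicate 2, the lower one, the difference was 0.89 (adjusted p = 0.0667), and without DMSO replicate 1 it was 1.71 (adjusted p = 0.0346). Without the trend in limma the adjusted p was 0.0658. It was 1.23 (adjusted p = 0.257) without IWP2 replicate 1 and 1.37 (adjusted p = 0.236) without IWP2 replicate 2.

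PCDH10, also called OL-protocadherin, a delta-2 member that recruits the WAVE complex, had the highest level of all members. It lies on the plus strand at chr4:133149315-133208606. It had 64.4 and 73.9 FPKM in DMSO and 50.4 and 45.7 FPKM in IWP2. The DMSO mean of 69.1 ± 6.72 FPKM was 1.44 times the IWP2 mean of 48.1 ± 3.34 FPKM (SD, n = 2 each), and the groups did not overlap. The difference was -0.51 on the log2 scale (SE 0.11, limma adjusted p = 0.0394). The call passed narrowly and was lost under most alternatives: the difference was -0.55, -0.47 and -0.44 with adjusted p of 0.0502, 0.0587 and 0.0602 after scaling to TPM, quantile normalization and median centring. Without DMSO replicate 1, DMSO replicate 2, IWP2 replicate 1 or IWP2 replicate 2 the adjusted p was 0.0863, 0.149, 0.174 and 0.235. With the replicate number as a block it was 0.0586.

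The other nonclustered genes did not pass. PCDH7, a delta-1 member, had 9.94 and 12.7 FPKM in DMSO and 10.7 and 12.1 FPKM in IWP2. Its groups overlapped, and the 95% interval of the log2 difference was -0.37 to 0.40. PCDH11X had 0.820 and 0.716 FPKM against 1.35 and 1.48 FPKM, without overlap (difference 0.45, limma adjusted p = 0.156). PCDH11X shares sequence with its near-identical copy PCDH11Y, and 67.5% of its 100-base windows were found in no other PCDH gene. The Y-linked copy was tested without a call, and its level is not given.

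PCDH19, a delta-2 member on the X chromosome, had 1.14 and 1.00 FPKM in DMSO and 0.568 and 0.504 FPKM in IWP2 (difference -0.43, limma adjusted p = 0.184). PCDH8, paraxial protocadherin, had 1.01 and 0.841 FPKM in DMSO and 0.419 and 0.921 FPKM in IWP2 (difference -0.22, 95% interval -0.79 to 0.35). IWP2 replicate 2 lay within the DMSO range and IWP2 replicate 1 below it. The pseudogene PCDH8P1 stayed at or under 0.222 FPKM in all libraries.

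The remaining nonclustered genes were too low to test. PCDH12, known from endothelium and trophoblast, had 0.104 and 0.0771 FPKM in DMSO and 0.246 and 0.0725 FPKM in IWP2. It shares 108 exon bases with RNF14 on the opposite strand, which was at 14.3 to 26.0 FPKM. The PCDH12 values may therefore include RNF14 reads. PCDH15, a component of the tip links of inner ear hair cells, had 0.456 and 0.0561 FPKM in DMSO and 0.0329 and 0.204 FPKM in IWP2. In both genes the 2 groups overlapped.

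By level, PCDH10 stood above every other member in each library. Among nonclustered genes in DMSO it was followed by PCDH1 (mean 11.4 ± 4.87 FPKM) and PCDH7 (11.3 ± 1.92 FPKM), which did not differ beyond their spread, and by PCDH18 (5.93 ± 0.264 FPKM) and PCDH17. In IWP2 the order was PCDH10, PCDH1 (28.4 ± 1.90 FPKM), then PCDH18 (12.7 ± 0.317 FPKM) and PCDH7 (11.4 ± 0.978 FPKM), then PCDH9. PCDH17 stood above PCDH9 in both DMSO libraries and below it in both IWP2 libraries.

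Among the clustered genes a single call was made, PCDHGB7, in 24 tested, or 4.17% beside 13.2% over all genes. Of the 24, 13 had a mean of at least 1 FPKM, and the log2(FPKM + 1) scale understates the change of low genes. The share of calls therefore does not show that the clustered genes changed less. A few genes carried most of each array. PCDHA11, PCDHA4 and PCDHA12 held 67.9% of the summed PCDHA FPKM, PCDHB2, PCDHB15 and PCDHB16 held 66.8% of PCDHB, and PCDHGC3, PCDHGA10 and PCDHGB7 held 70.6% of PCDHG. From library to library these shares ranged from 64.1% to 70.5%, from 61.2% to 69.6% and from 64.2% to 73.4%, so they held most of the summed level in every library.

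**Figure D2:**
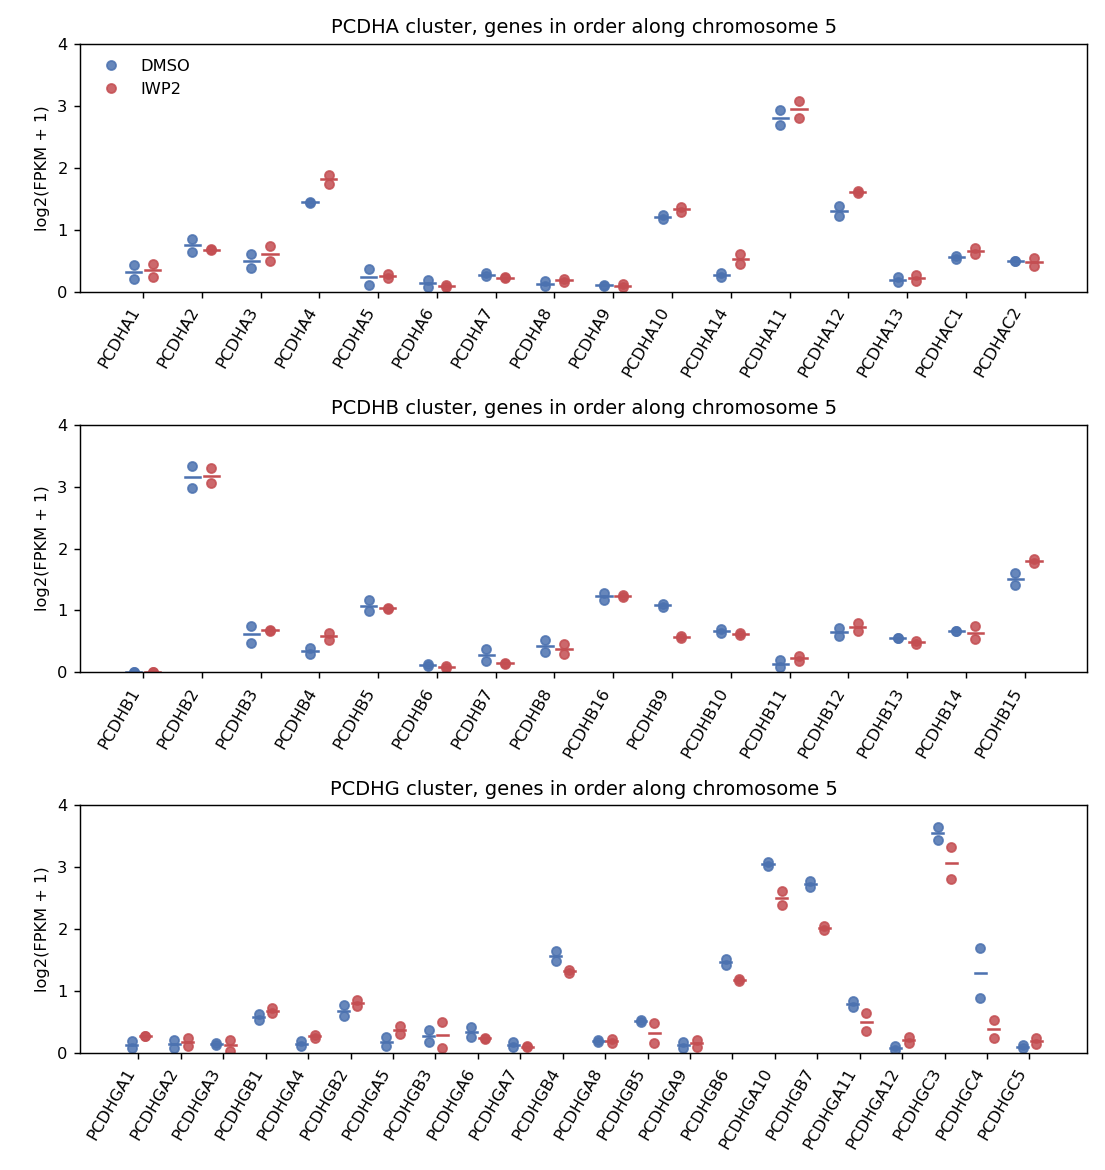
Levels of the 54 clustered protocadherin genes as log2(FPKM + 1), in the order in which they lie along chromosome 5, with DMSO libraries in blue and IWP2 libraries in red; points are libraries and lines group means. PCDHA11, PCDHB2 and PCDHGC3 are the highest of their arrays in all 4 libraries, and PCDHGB7 is lower in both IWP2 libraries.

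The summed PCDHG level was 31.6 and 33.9 FPKM in DMSO and 22.1 and 22.7 FPKM in IWP2. The groups did not overlap, and the difference of the log2 sums was -0.55, with means of 32.8 ± 1.62 and 22.4 ± 0.471 FPKM (SD, n = 2 each). The PCDHA sum moved the other way, from 14.4 and 13.2 FPKM to 16.0 and 16.9 FPKM (0.25 on the log2 scale). The PCDHB sum was 18.0 and 16.4 FPKM in DMSO and 16.6 and 18.1 FPKM in IWP2, with groups that overlapped and a difference of 0.01. These sums are a description and were not tested; a two-sided exact permutation test of 2 against 2 libraries cannot give a p below 0.333.

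**Figure D3:**
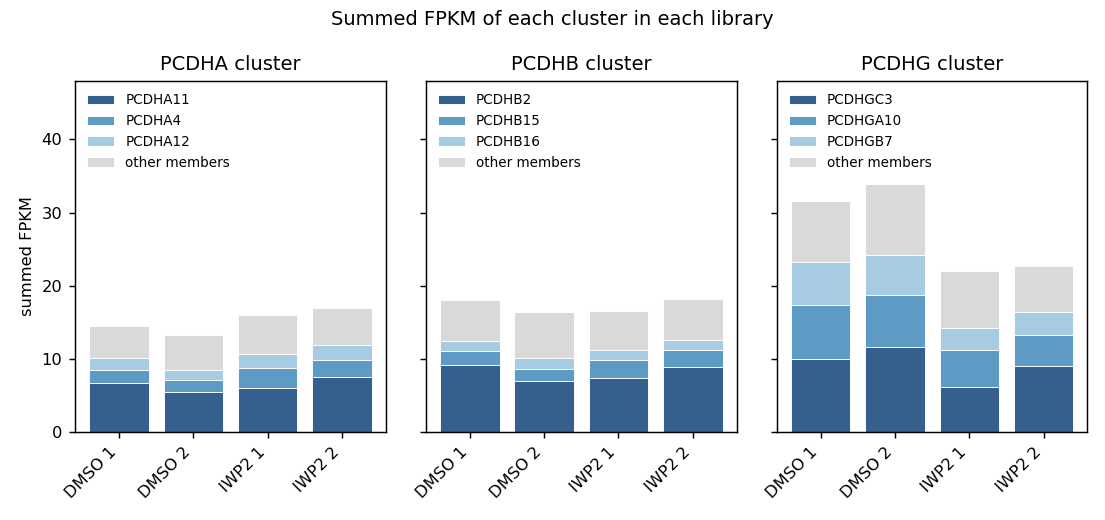
Summed FPKM of the PCDHA, PCDHB and PCDHG genes in each library (bars from 0), split into the 3 genes with the highest mean and the other members. The PCDHG bars stand at 31.6 and 33.9 in DMSO and at 22.1 and 22.7 in IWP2, while the PCDHB bars overlap between groups.

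The 3 highest PCDHG genes lay lower in both IWP2 libraries, and 1 of them passed the test. PCDHGB7, at chr5:141417645-141512979 on the plus strand, had 5.87 and 5.42 FPKM in DMSO and 2.98 and 3.14 FPKM in IWP2, a 1.85-fold fall in the means. The difference was -0.71 on the log2 scale (SE 0.13, limma adjusted p = 0.0285). Leaving out DMSO replicate 1, DMSO replicate 2, IWP2 replicate 1 or IWP2 replicate 2 gave -0.66, -0.76, -0.68 and -0.74 with adjusted p of 0.118, 0.110, 0.201 and 0.191. With the replicate number as a block it was 0.0501.

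Its neighbour PCDHGA10 had 7.46 and 7.15 FPKM in DMSO and 5.15 and 4.23 FPKM in IWP2 (difference -0.55, limma adjusted p = 0.0653). PCDHGC3, a C-type gene at the end of the array, had 9.89 and 11.6 FPKM in DMSO and 6.05 and 9.0 FPKM in IWP2 (difference -0.48, limma adjusted p = 0.198). PCDHGC4, named after its values were seen, was uneven between replicates, with 0.854 and 2.24 FPKM in DMSO and 0.447 and 0.181 FPKM in IWP2 (difference -0.91, limma adjusted p = 0.140).

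Of the 9 PCDHG genes tested, 7 had both IWP2 libraries below both DMSO libraries, beside 31% of all genes tested, and 1 had both above, beside 27.6%. In PCDHA 4 of 6 had both IWP2 libraries above and none below. In PCDHB 1 of 9 lay above and 1 below. None of the PCDHA or PCDHB genes passed the limma test; 1, PCDHB9, had an unadjusted p under 0.05 and was called without the trend. PCDHGC4, PCDHGA11 and PCDHB9 reached the level for testing through the DMSO libraries and PCDHAC1 through the IWP2 libraries, so for these 4 genes the filter favoured the direction counted. PCDHA and PCDHG genes share reads within their array through the constant exons, and most PCDHB genes share a smaller part of their sequence. The counts are therefore not counts of separate observations.

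PCDHA11 had 6.68 and 5.43 FPKM in DMSO and 5.98 and 7.48 FPKM in IWP2, with overlapping groups and a 95% interval of the log2 difference from -0.29 to 0.55. PCDHA4 had 1.74 and 1.70 FPKM against 2.68 and 2.36 FPKM (limma adjusted p = 0.191), and PCDHA12 had 1.62 and 1.35 FPKM against 2.03 and 2.08 FPKM (limma adjusted p = 0.289). Both lay above DMSO in the 2 IWP2 libraries without passing the test. PCDHA12 shares 10.6% of its exon bases with AC005609.3 on the opposite strand, which was at 0.617 to 2.69 FPKM. The PCDHA12 values may include reads of that gene.

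PCDHB2 had 9.07 and 6.92 FPKM in DMSO and 7.30 and 8.82 FPKM in IWP2, with a 95% interval of -0.42 to 0.45. PCDHB15 had 2.03 and 1.67 FPKM against 2.56 and 2.41 FPKM (limma adjusted p = 0.296), and PCDHB16 had 1.254 and 1.445 FPKM against 1.33 and 1.37 FPKM (limma adjusted p = 0.997). PCDHB9, named after its values were seen, had 1.09 and 1.15 FPKM in DMSO and 0.503 and 0.469 FPKM in IWP2 (difference -0.51, limma adjusted p = 0.124). Its 2 IWP2 libraries lay below both DMSO libraries. PCDHB16 shares 16.3% of its exon bases with AC244517.4 on the opposite strand, which was at 1.96 FPKM in DMSO replicate 1. PCDHB2 shares 15.0% with AC244517.5 on the opposite strand, which was at 0.662 FPKM in DMSO replicate 1. The PCDHB16 and PCDHB2 values may include reads of those genes.

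**Figure D4:**
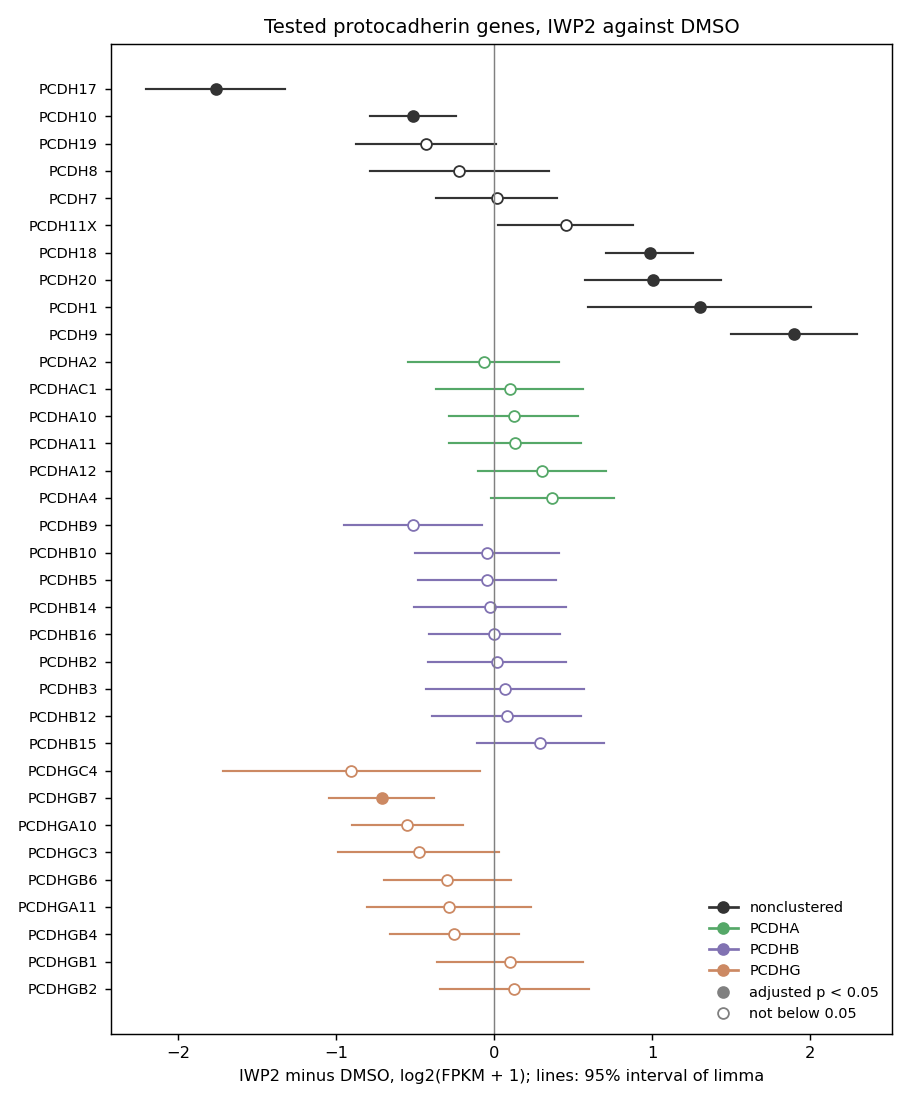
Difference between IWP2 and DMSO in log2(FPKM + 1) for 34 tested protocadherin genes, with the 95% interval from limma; filled points have an adjusted p below 0.05. The 6 filled nonclustered genes lie on both sides of 0, and PCDHGB7 is the filled clustered gene.

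Promoters of the arrays carry a short conserved element around the letters CGCT, which is known to be bound with CTCF. RefSeq promoter windows (GRCh38.p14, 250 bases before to 50 after the gene start) were found for 58 of the 68 genes. The called genes PCDH10 and PCDH20 were among those without a window. In each array the run of 10 letters containing CGCT that most windows shared was taken, and matches on either strand were counted. It was TGATGTCGCT in 8 of 13 PCDHA genes, GGTGGCGCTG in 12 of 14 PCDHB genes and GCGCCGCTGT in 9 of 20 PCDHG genes. None of the 3 runs was found in the windows of the other arrays or in those of the 11 nonclustered genes. Over all 35116 windows, those of the arrays included, they were found in 0.0342%, 0.276% and 0.131%. Each run was picked for being shared within its own array, so a higher share there was built in. The 4 letters CGCT alone were in 70.0% of all windows. The stretches show the run in capitals, read on the plus strand, with 25 bases to each side in lower case. They are given for leading genes of each array that held the run and for PCDHGA7. PCDHGA7, a gene with low values, was chosen after its values were seen.

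PCDHA4 (chr5:140806964-140807023): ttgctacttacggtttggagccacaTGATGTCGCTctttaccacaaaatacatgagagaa

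PCDHA12 (chr5:140875229-140875288): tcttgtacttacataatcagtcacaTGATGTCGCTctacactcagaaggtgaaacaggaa

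PCDHB2 (chr5:141094530-141094589): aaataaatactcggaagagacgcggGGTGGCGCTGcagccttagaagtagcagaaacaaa

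PCDHB15 (chr5:141245300-141245359): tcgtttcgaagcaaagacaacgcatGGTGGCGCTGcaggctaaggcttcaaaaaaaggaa

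PCDHGA10 (chr5:141412918-141412977): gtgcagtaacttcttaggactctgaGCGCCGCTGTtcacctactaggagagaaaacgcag

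PCDHGA7 (chr5:141382636-141382695): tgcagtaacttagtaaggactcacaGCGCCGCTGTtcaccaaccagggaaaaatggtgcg

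Genes with the shared letters were found at high and at low levels. Among PCDHG genes that held them, mean levels ran from 0.0865 FPKM in PCDHGA7 to 6.0 FPKM in PCDHGA10, and among those without an exact match from 0.102 to 9.12 FPKM. PCDHGC3, PCDHGB7 and PCDHA11, each among the 3 highest genes of its array, did not hold the exact 10 letters. The 7 letters CTTTGAT, a core site of the TCF/LEF factors of the Wnt pathway, were in none of the clustered windows, in 1 of 11 nonclustered ones and in 2.62% of all windows.

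The regulators of promoter choice and silencing were measured too. Of 17 tested, 1 rose and none fell, beside 13.2% called over all genes, with a median difference of -0.11 beside -0.01 over all genes. The 1 was DNMT3B, a de novo DNA methyltransferase, at 83.9 and 92.2 FPKM in DMSO and 132 and 128 FPKM in IWP2 (limma adjusted p = 0.0174). CTCF, which anchors the loops between promoters and enhancers of the arrays, had 30.1 and 32.7 FPKM against 30.7 and 28.8 FPKM (95% interval -0.31 to 0.16). SMCHD1, a repressor of the arrays, had 11.0 and 11.9 FPKM against 11.9 and 9.50 FPKM (95% interval -0.46 to 0.25). The cohesin subunits RAD21 (74.6 and 82.4 against 63.0 and 60.2 FPKM, limma adjusted p = 0.0695) and SMC3 (29 and 29.8 against 23.8 and 24.7 FPKM, limma adjusted p = 0.113) and the SMCHD1 partner LRIF1 (5.24 and 4.82 against 6.41 and 6.85 FPKM, limma adjusted p = 0.149) did not pass.

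Of 18 cytoplasmic partners and WAVE complex genes tested, 1 rose and 1 fell, beside 13.2% called over all genes, with a median of -0.03. CYFIP2, a WAVE complex subunit, had 8.71 and 8.38 FPKM in DMSO and 23.9 and 26.3 FPKM in IWP2 (difference 1.45, limma adjusted p = 0.00245). DAB1, an adaptor that binds PCDH18, had 14.7 and 16.7 FPKM in DMSO and 6.01 and 8.41 FPKM in IWP2 (difference -1.03, limma adjusted p = 0.0238). The kinases FYN (30.7 and 28.0 against 37.0 and 47.3 FPKM, limma adjusted p = 0.0858) and RET (1.248 and 1.078 against 1.88 and 1.73 FPKM, limma adjusted p = 0.207) did not pass.

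Among 11 other large cadherins tested, 3 rose and 1 fell, beside 13.2% called over all genes, with a median of 0.40. DCHS1, a Dachsous cadherin that pairs with FAT4, had 8.38 and 8.67 FPKM in DMSO and 2.44 and 1.92 FPKM in IWP2 (difference -1.59, limma adjusted p = 0.00465). CDH23, the tip-link partner of PCDH15, had 0.949 and 1.33 FPKM in DMSO and 4.13 and 3.71 FPKM in IWP2 (difference 1.2, limma adjusted p = 0.0143). FAT1 rose from 17.3 and 15.1 FPKM to 24.8 and 26.7 FPKM (limma adjusted p = 0.0245), and CELSR2, a planar polarity cadherin, from 4.88 and 3.82 FPKM to 9.57 and 7.90 FPKM (limma adjusted p = 0.0316).

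The 4 lists of companion genes and the Wnt response genes held 16 calls in all, and 3 to 7 calls when 1 library was left out. Of 13 genes beside the clusters that were tested, 2 rose and 1 fell, beside 13.2% called over all genes, with a median of 0.01. TAF7, which lies between the PCDHB and PCDHG arrays, had 36.6 and 44.8 FPKM in DMSO and 45.4 and 49.6 FPKM in IWP2 (limma adjusted p = 0.315). The 3 called genes were FCHSD1 (6.89 and 10.5 against 19.7 and 16.8 FPKM, limma adjusted p = 0.0389), RELL2 (4.96 and 2.91 against 8.73 and 9.37 FPKM, limma adjusted p = 0.0423) and RNF14 (26.0 and 21.3 against 14.3 and 14.9 FPKM, limma adjusted p = 0.0322). Without the trend in limma none of the 3 was called, with adjusted p of 0.0603, 0.0596 and 0.0559. ZMAT2 had 38.6 and 39.3 FPKM in DMSO and 45.1 and 47.3 FPKM in IWP2 (limma adjusted p = 0.123).

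Markers of other cell types moved between the groups too, and their part in the protocadherin differences was not tested. Of the endothelial list 2 of 4 were tested and both fell (list sums 56.9 to 64.4 FPKM in DMSO, 37.9 to 40.2 FPKM in IWP2). Most of these sums was KDR (53.2 and 60.4 against 38.6 and 35.7 FPKM), and PECAM1 and CDH5 stayed under 0.5 FPKM. The endoderm list had 2 of 3 fall (139.2 to 179.7 against 80.0 to 95.6 FPKM). Most of its sums was SOX17, which was not called (154.7 and 104.2 against 79.7 and 94.9 FPKM, limma adjusted p = 0.167). The amnion or trophoblast list had 4 of 6 tested and 2 rise (63.7 to 63.8 against 80.6 to 87.1 FPKM). The neural ectoderm list summed to at most 1.69 FPKM in any library, with 1 of 4 tested and no call. The blood list summed to at most 2.85 FPKM, with its 1 tested gene lower in IWP2.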

How the data were processed

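Gene-level FPKM values of 4 libraries (2 DMSO, 2 IWP2) were used as the authors deposited them. The columns are headed by a minus or plus sign before IWP2; minus was read as DMSO, and DMSO replicates 1 and 2 carry the numbers of those columns. The submitters' processing notes name BWA, Bowtie, RSEM and hg19; tool versions and roles are not given in the sources used here. The row positions are GRCh38: 99.84% of rows with a GENCODE 29 gene overlapped it there. Rows above 0 in 1 or more libraries numbered 28917. Genes with a mean of at least 0.5 FPKM over all libraries were tested with limma 3.58.1 (R 4.3.3, trended prior variance, two-sided) on log2(FPKM + 1), unpaired, with Benjamini-Hochberg adjustment over 15980 genes and calls at 0.05. Named were all nonclustered genes, called clustered genes, the 3 highest genes per array, and up to 4 genes of smallest p per companion list with 5 fixed additions. The members and lists were chosen with earlier results of these data known. Alternatives changed pseudocount, filter, scaling, trend, block, fold minimum and libraries. The count-based alternatives were not run, since the table holds no counts. Exons came from GENCODE 29 and promoters from RefSeq.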

Additional observations from a re-analysis of the deposited data

How the results depend on the processing

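With 2 libraries per group and no read counts, precision rests on the spread between pairs, and several calls lie near the threshold. The 7 called protocadherins kept their direction under every alternative run, but for most alternatives this was fixed in advance. Their groups did not overlap, so neither a left-out library nor another pseudocount could turn the direction. Changes of filter, trend, block or fold minimum left the difference itself as it was. Only TPM scaling, quantile normalization and median centring could have turned it. With all 28917 genes above 0 tested, 118 genes were called higher and 263 lower, and the nonclustered calls were 2 higher and 0 lower, the clustered calls 0 and the companion calls 6 (16 as reported). Scaling to TPM, quantile normalization, median centring and the fit without the trend each left 1 nonclustered gene lower; the last also called 2 clustered genes and 3 nonclustered genes higher, without PCDH1. With a log2 difference of at least 1 required, 425 genes were higher and 623 lower, with 1 nonclustered gene lower and 0 clustered. Leaving out 1 library at a time gave 18 to 286 genes higher and 76 to 410 lower, 0 to 2 nonclustered higher, 0 to 1 lower, 0 clustered and 3 to 7 companion genes; a lone library was assumed to vary like the other group. With 2 DMSO and 1 IWP2 library no protocadherin was called, while 7 and 8 had an unadjusted p under 0.05 without IWP2 replicate 1 and 2. With the replicate number as a block 842 genes were higher and 1059 lower, with 1 nonclustered gene lower and 0 clustered; same-numbered libraries deviated with a correlation of 0.142 over 15980 genes, and nothing in the labels pairs them. With 1 library left out, the log2 difference of the PCDHG sum was -0.60 to -0.50, that of PCDHA 0.19 to 0.31 and that of PCDHB -0.06 to 0.08, so the last had no stable direction.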
